A study of Mus musculus with 39 samples.

Results

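The genes described here carry the liver's response to interleukin 6, the other gp130 cytokines, interleukin 1 and tumor necrosis factor. They are the receptor chains Il6ra, Il6st, Osmr and Lifr, the transcription factor Stat3, its feedback inhibitor Socs3, the interleukin 1 receptor chains Il1r1 and Il1rap, the antagonist Il1rn and the tumor necrosis factor receptor Tnfrsf1a. They were chosen by name: every probe of the array whose RefSeq accession belongs to 1 of these 10 genes was taken, which gave 17 of the 25903 RefSeq probes tested, and 10 of the 18259 gene names.

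Livers of 39 male C57BL6/J mice were profiled, each on 1 dual dye array (liver RNA in Cy5, a common reference RNA from pooled mouse cell lines in Cy3). Aggressor-exposed (AggE) mice sat daily for 6 hrs in a mesh box inside the home cage of an aggressor SJL male, without food or water, with brief direct contacts at random times. Control (Ctrl) mice kept the same schedule, boxes and deprivation with no aggressor nearby. All mice were singly housed and met the cue of the aggressor in a partition test before they were killed, so that Ctrl mice are no untouched baseline. Livers were taken 24 hrs after 5 days of exposure (4 Ctrl, 5 AggE), 24 hrs after 10 days (4 Ctrl, 5 AggE), 1.5 wks after 5 days (4 Ctrl, 5 AggE) and 4 wks after 10 days (6 Ctrl, 6 AggE). For the 1.5-wk groups the labels disagree: the source line gives 5 days for all 9 mice, while the sample titles of all 5 AggE mice and of Ctrl mouse 4 begin with codes that hold a 10. In the description of the 5 AggE mice at 24 hrs after 5 days, a short code reads 1 day where all other labels read 5. The source line was followed. Without Ctrl mouse 4, 0 members passed between AggE and Ctrl mice at 1.5 wks, as with that mouse.

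In the gp130 family, a cytokine binds its own receptor chain (IL-6 binds Il6ra, oncostatin M binds Osmr, leukemia inhibitory factor binds Lifr), which pairs with the shared chain Il6st, also called gp130. The pair switches on JAK kinases, which phosphorylate STAT3, and STAT3 drives acute phase genes in hepatocytes and also Socs3, whose protein shuts the receptor down. IL-1 signals through Il1r1 together with Il1rap, Il1rn blocks the same receptor, and Tnfrsf1a is the main receptor for TNF in liver. Much of this pathway is run by phosphorylation, which an RNA array does not measure.

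Values are log2 ratios of liver over reference RNA, so a group difference of 1 is a 2-fold change, and no probe's ratio can be ranked against another's. By the scanner software's flag, the probe used for Lifr, Stat3, Socs3, Il1rap and Tnfrsf1a was well above background in the liver channel on all 39 arrays, that for Il1r1 on 37, for Il6st on 35, for Il6ra and Osmr on 21, and for Il1rn on 0. The share of all probes above background differed between groups: its median was 22.4% in both 1.5-wk groups, 22.6% and 29.8% in AggE and Ctrl mice at 24 hrs after 5 days, and 51.7% and 53.4% in Ctrl and AggE mice at 4 wks. Ctrl mouse 6 at 4 wks stood apart with 70.4%. At both 24-hr points no array slide held Ctrl and AggE mice together, and at 1.5 and 4 wks 1 slide did. Whole liver RNA was measured, in which fewer cells of a type and less RNA per cell cannot be told apart.

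None of the 10 genes passed the test between AggE and Ctrl mice at any of the 4 time points (limma's moderated test, Benjamini-Hochberg adjusted p of 0.05 or less over all RefSeq probes). Of all gene names, 3.44% passed at 24 hrs after 5 days, 0.0986% at 24 hrs after 10 days, 0% at 1.5 wks and 3.66% at 4 wks. Without adjustment (p of 0.05 or less) 4, 0, 0 and 3 of the 10 genes passed at these points, against 16.9%, 3.01%, 2.4% and 21.9% of all gene names. No member passed the study's own rule of a 2-fold difference with such a p, which 0.279%, 0.17%, 0.0383% and 0.252% of all gene names did. The median difference over the 10 genes was -0.02, 0.08, 0.05 and -0.14, beside medians within 0.01 of 0 over all gene names. At 4 wks, 9 of the 10 genes were lower in AggE than in Ctrl mice on average, while 53.2% of all gene names were higher. That count includes Il1rn (-0.02), whose probe was not above background. The 4 genes at 24 hrs after 5 days were Lifr, Il1rap, Tnfrsf1a and Il1rn (not above background), and the 3 at 4 wks were Osmr, Stat3 and Il1rap.

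The AggE-versus-Ctrl differences were also compared between regimens and times. By the adjusted test 0 members passed between 5 and 10 days of exposure at 24 hrs, between 24 hrs and 1.5 wks or between 24 hrs and 4 wks, and 0.0274%, 0.0876% and 0.0767% of all gene names did. At an unadjusted p of 0.05 or less 1, 1 and 5 members passed, against 6.48%, 7.75% and 9.75%. The first was Il6ra, which was above background in 0 of 9 mice at 24 hrs after 5 days, and the second was Il1rn, whose probe was above background on 0 arrays, so neither carries a direction. The 5 between 24 hrs and 4 wks after 10 days were Il6ra, Osmr, Stat3, Il1r1 and Tnfrsf1a. For Il1r1 the difference was higher at 24 hrs than at 4 wks by 0.72 (95% confidence interval 0.13 to 1.30, adjusted p = 0.499, limma).

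**Figure D1:**
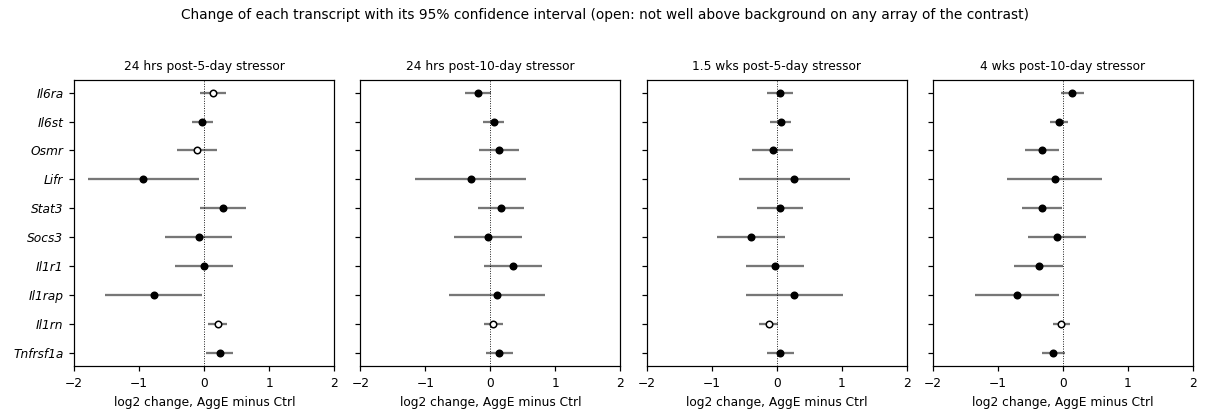
AggE minus Ctrl difference (log2) of each of the 10 genes at the 4 time points, with 95% confidence intervals of the 8-group fit. Most intervals cross 0, and the widest belong to Lifr and Il1rap, whose differences at 24 hrs after 5 days were -0.94 and -0.77.

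Il6ra, the chain that binds IL-6, was near the detection limit. In livers taken 24 hrs after 5 days it was not well above background in any of the 9 mice, so its ratios of -0.34 to 0.07 there carry no level. After 10 days of exposure, at 24 hrs, the 4 Ctrl mice measured -0.02, 0.09, 0.19 and 0.05 and the 5 AggE mice 0.00, 0.02, 0.02, -0.08 and -0.55. In 3 of these 4 Ctrl and 3 of these 5 AggE mice it was well above background. AggE mouse 5, at -0.55, was not, so that this lowest value carries no level, and the ranges overlapped (difference -0.20 ± 0.10, SE, unadjusted p = 0.0545, limma). At 4 wks all 12 mice were above background, with a lowest, median and highest ratio of -0.13, 0.08 and 0.40 in Ctrl and 0.14, 0.24 and 0.40 in AggE. A second Il6ra probe differed there by 0.36 ± 0.11 (SE; limma, Benjamini-Hochberg adjusted p = 0.0646). Averaged over both probes, Il6ra was higher in AggE mice at 4 wks by 0.25 (adjusted p = 0.0364, limma). On the second probe AggE mouse 1 measured 1.22 and the other AggE mice 0.18 to 0.47, and without mouse 1 that probe differed by 0.21 and the mean by 0.19 (adjusted p = 0.107 and 0.046). The call of the mean was lost without AggE mouse 2 or 3 or Ctrl mouse 3, 4 or 5 (0.22 to 0.27). With slide as a fixed block the mean differed by 0.49, resting on AggE mouse 1, alone of its group on the shared slide. Without that mouse it was 0.05. With no normalization between arrays the probe used gave -0.03.

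Il6st, the shared gp130 chain, differed little between AggE and Ctrl mice. Its differences ran from -0.06 to 0.06 over the 4 time points, with standard errors of 0.07 to 0.08, and all 4 of their 95% confidence intervals lay between -0.20 and 0.22. Osmr, the oncostatin M receptor chain, was not well above background in any mouse at 24 hrs after 5 days. At 4 wks, where all 12 mice were above background, its lowest, median and highest ratios were -2.12, -1.86 and -1.71 in Ctrl and -2.62, -2.09 and -1.96 in AggE mice. The AggE group lay lower but overlapped (difference -0.32 ± 0.13, SE, adjusted p = 0.16, limma). That difference was 0.21, the opposite sign, when no normalization between arrays was applied.

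Lifr, the leukemia inhibitory factor receptor, varied most among the members. At 24 hrs after 5 days the 4 Ctrl mice measured 3.27, 3.43, 3.99 and 3.07. The 5 AggE mice measured 2.98, 2.69, 1.94, 1.33 and 3.60. AggE mice 1 to 4 were all below every Ctrl mouse, and mouse 5, within the Ctrl range, was the only AggE mouse of this group on another slide. The difference was -0.94 (95% confidence interval -1.79 to -0.08, adjusted p = 0.227, limma) and -1.21 without mouse 5 (adjusted p = 0.113), and it was -0.61 with slide as a random block (adjusted p = 0.987). From the scanner software's own processed signals it was -0.02, and the 3 other Lifr probes differed there by -0.04 to 0.27. Those 3 were well above background in 1 to 3 of the 4 Ctrl mice and in 1 of the 5 AggE mice, mouse 5, so they give little measure of Lifr in AggE mice 1 to 4. Of all probes, 22.8%, 22.6%, 17.3%, 15.7% and 28.2% were above background in AggE mice 1 to 5, the order of their Lifr values. In Ctrl mice 1 to 4 these shares were 31%, 25.3%, 28.6% and 30.9%, not in the order of Lifr. The part of array signal was not tested. In livers taken 24 hrs after 10 days Ctrl mice measured 3.4, 2.86, 3.02 and 3.52 and AggE mice 2.70, 2.78, 2.60, 3.09 and 3.30, overlapping ranges. At 4 wks the lowest, median and highest ratio was 2.65, 3.24 and 3.65 in Ctrl and 2.53, 3.09 and 3.77 in AggE mice, again overlapping.

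**Figure D2:**
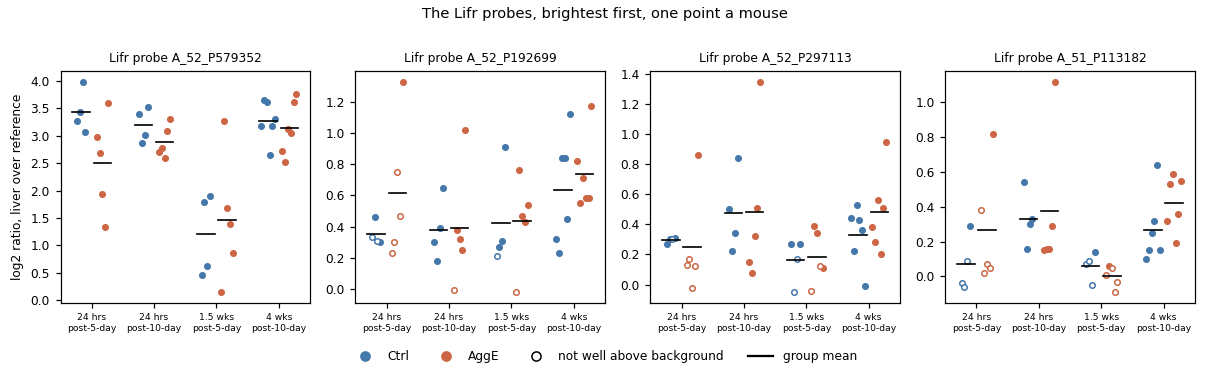
Log2 ratio of each mouse for the 4 Lifr probes, by group, each probe on its own axis. The brightest probe was low in 4 AggE mice at 24 hrs after 5 days (1.33 to 2.98) and in most 1.5-wk mice, where the 3 other probes were often not above background (open points).

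Stat3, the transcription factor downstream of gp130, was measured by 10 spots of 1 probe. After 5 days of exposure, at 24 hrs, Ctrl mice measured -0.05, 0.09, -0.30 and 0.40 and AggE mice 0.48, 0.06, 0.16, 0.67 and 0.27, which overlapped (difference 0.29 ± 0.17, SE, adjusted p = 0.407, limma). At 4 wks the order was the other way. Lowest, median and highest were 0.10, 0.31 and 0.65 in Ctrl and -0.65, 0.05 and 0.42 in AggE mice, with a difference of -0.32 ± 0.15 (SE; adjusted p = 0.223, limma). AggE mouse 1 held the lowest value, and without it the difference was -0.19. That mouse was the only AggE mouse on the slide that held both 4-wk groups, and its array had the lowest quality weight of the 39 (0.223). With slide as a fixed block the difference was -0.78 (adjusted p = 0.0738), and -0.25 without that mouse (adjusted p = 1). The AggE-versus-Ctrl difference of Stat3 after 10 days was higher at 24 hrs than at 4 wks by 0.49 ± 0.23 (SE; unadjusted p = 0.0429, adjusted p = 0.548, limma).

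Socs3, the feedback inhibitor that STAT3 itself induces, did not pass between AggE and Ctrl mice at any time. At 24 hrs after 5 days Ctrl mice measured -0.81, -1.20, -1.18 and -1.37 and AggE mice -1.59, -1.08, -1.05, -1.17 and -1.24. In livers taken 24 hrs after 10 days Ctrl mice measured -1.5, -1.04, -1.13 and -1.17 and AggE mice -1.11, -1.06, -1.51, -1.30 and -1.24. Both pairs of groups overlapped, with differences of -0.09 (95% confidence interval -0.61 to 0.43) and -0.04 (-0.56 to 0.48). At 4 wks the medians were -1.30 in Ctrl and -1.39 in AggE mice.

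Socs3 and Tnfrsf1a were the 2 members, of 10, whose RefSeq promoter windows (GRCm38.p6, 250 bases before to 50 after the transcript start) hold the palindrome TTCNNNGAA, the core letters of a STAT-binding motif, which reads the same on both strands. It is in 2 of 14 member windows (14.3%) and in 8.3% of 32851 windows of all genes. The stretches around these 2 matches, and that of the target gene Apcs described below, are given 5′ to 3′ with the match in capitals, as a description of the letters only.
Socs3, chr11:117969421-117969570, minus strand: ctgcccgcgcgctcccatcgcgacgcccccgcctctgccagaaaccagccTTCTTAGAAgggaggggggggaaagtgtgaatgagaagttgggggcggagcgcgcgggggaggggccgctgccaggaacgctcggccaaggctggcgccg
Tnfrsf1a, chr6:125349473-125349572, plus strand: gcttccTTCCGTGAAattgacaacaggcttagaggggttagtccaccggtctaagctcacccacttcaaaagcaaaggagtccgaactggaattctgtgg
Apcs, chr1:172895205-172895304, minus strand: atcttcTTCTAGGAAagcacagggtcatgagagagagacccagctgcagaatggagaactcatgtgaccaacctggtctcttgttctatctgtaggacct
The match begins 154 bases before the transcript start of its window in Socs3 and 244 bases before it in Tnfrsf1a and in Apcs. The annotated Socs3 gene runs from 117966079 to 117970336, so its match lies within the gene's span and the start is that of 1 transcript.

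Il1r1, the signaling receptor of IL-1, differed by -0.01 ± 0.22 (SE) at 24 hrs after 5 days and by 0.35 ± 0.22 at 24 hrs after 10 days. In the latter, Ctrl mice measured -0.02, 0.17, -0.19 and 0.38 and AggE mice 0.20, 0.59, 0.80, 0.25 and 0.31. The AggE mice were above all Ctrl mice but the highest, and the difference did not pass (adjusted p = 1, limma). At 4 wks it had the opposite sign, with lowest, median and highest ratios of 0.01, 0.80 and 1.23 in Ctrl and 0.14, 0.39 and 0.70 in AggE mice, a difference of -0.37 ± 0.19 (SE; adjusted p = 0.262, limma). The lowest Ctrl value was that of mouse 6, the array that stood apart, and with arrays weighted by their quality the 4-wk difference was -0.53 (adjusted p = 0.0384).

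Il1rap, the accessory chain without which Il1r1 does not signal, was read by a probe to the transcript NM_134103, while a probe to NM_008364 was well above background on 0 arrays. The gene also makes a soluble form, and the tables used here do not say which form each transcript encodes, so the values are those of NM_134103 and not of the signaling chain as such. After 5 days of exposure, at 24 hrs, Ctrl mice measured 3.92, 3.54, 3.36 and 3.71 and AggE mice 3.33, 2.42, 2.44, 2.51 and 3.58. As for Lifr, AggE mice 1 to 4, which shared a slide, lay below all Ctrl mice and mouse 5 did not (difference -0.77, 95% confidence interval -1.52 to -0.03, adjusted p = 0.258, limma). The direction changed with the processing, since the scanner software's processed signals gave 1.13, higher in AggE mice. At 24 hrs after 10 days all 9 mice lay between 3.54 and 4.17. At 4 wks the lowest, median and highest ratio was 3.65, 4.09 and 4.57 in Ctrl and 2.59, 3.5 and 3.90 in AggE mice (difference -0.71 ± 0.32, SE, adjusted p = 0.2), with overlap. The probe used for Il1rn, the antagonist, was not well above background on any array, and its ratios, all between -0.67 and -0.01, carry no order. A second Il1rn probe was above background on 2 arrays, those of Ctrl mouse 6 and AggE mouse 2 at 4 wks.

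Tnfrsf1a, the TNF receptor, was the only member whose groups did not overlap in an AggE-versus-Ctrl comparison. In livers taken 24 hrs after 5 days Ctrl mice measured -0.05, 0.03, -0.05 and 0.05 and AggE mice 0.34, 0.22, 0.14, 0.37 and 0.10. All 5 AggE mice were above all 4 Ctrl mice, and the groups of 7.7% of all gene names did not overlap there (1.89%, 0.915% and 1.7% at the 3 other points). The difference was 0.24 ± 0.10 (SE; 95% confidence interval 0.03 to 0.45, adjusted p = 0.2, limma), it passed when the Cy5 channel was tested alone (0.48, adjusted p = 0.0202), and with slide as a random block it was 0.17 (adjusted p = 0.956). After 10 days of exposure, at 24 hrs, it was 0.14 ± 0.10, with Ctrl mice at -0.38, -0.41, -0.18 and -0.18 and AggE mice at -0.27, -0.26, -0.06, -0.16 and 0.00. At 4 wks the medians were -0.39 in Ctrl and -0.53 in AggE mice, a difference of -0.15 ± 0.09 (SE). AggE mouse 1 was lowest at -0.98, and without it the 4-wk difference was -0.06. With slide as a fixed block, where that mouse was alone of its group on the shared slide, the difference passed at -0.47 (adjusted p = 0.0292), and without it it was -0.13 (adjusted p = 1).

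**Figure D3:**
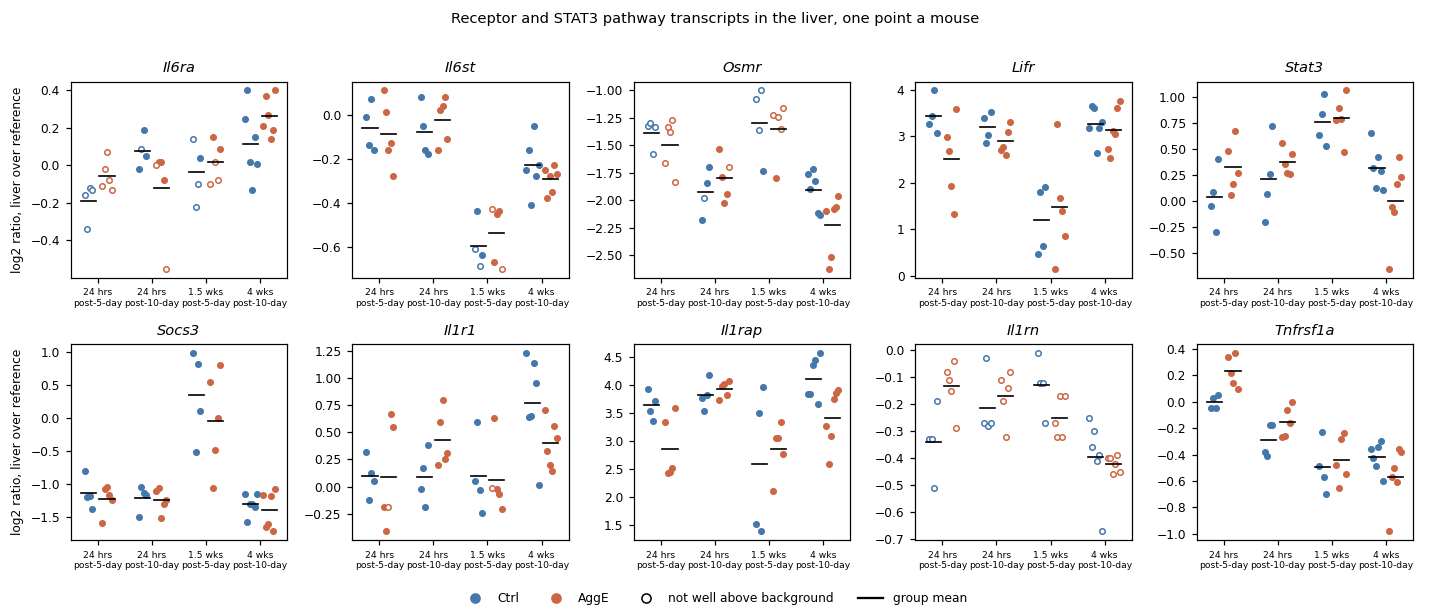
Log2 ratio of liver over reference RNA for each of the 39 mice and each of the 10 genes, by group, with a bar at the group mean. Lifr, Il6st and Tnfrsf1a were lower and Socs3 and Stat3 higher in the 1.5-wk groups than at 24 hrs after 5 days, on average in Ctrl and in AggE mice.

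Among genes listed as liver targets of gp130 and STAT3, a minority passed as higher in AggE mice at 24 hrs. Most passed between AggE and Ctrl mice at no time point. Which receptor or factor acted on them here was not tested. The list holds 34 measured genes, Il1rap among them. At 24 hrs after 5 days 9 passed as higher and none as lower, beside 1.55% and 1.89% of all gene names. At 24 hrs after 10 days 5 passed as higher (0.0876%). Higher on average in AggE mice at these points were 25 and 24 of the 34 (51% and 49.4% of all gene names). At an unadjusted p of 0.05 or less 12 and 10 were higher (7.74% and 1.68%) and 1 and 0 lower (9.14% and 1.34%). The list's median difference was 0.33 and 0.18, against a median within 0.01 of 0 over all gene names. The list was drawn up with earlier results of these data known, so its excess over all gene names is no independent test. At 1.5 wks 0 of 34 passed, also at an unadjusted p of 0.05 or less, and the median was 0.03. At 4 wks 1 rose and 1 fell, with a median of -0.11. With slide as a random block, 4 genes passed at each of the 24-hr points (Saa1, Saa3, Lcn2 and Apcs) and 0 at 4 wks. Other processing gave 3 to 13 genes after 5 days, 3 to 10 after 10 days and 0 to 4 at 4 wks, the lowest 24-hr counts including those with no normalization between arrays. Saa1, Saa3 and Lcn2 passed at both 24-hr points under every alternative run and without any 1 mouse.

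Saa3 and Saa1, both acute phase serum amyloid A genes, and Lcn2 had the largest differences of the list. Saa3 measured -0.85, -0.90, -0.38 and -1.29 in Ctrl and 3.68, 4.00, 1.31, 4.27 and 3.24 in AggE mice at 24 hrs after 5 days (difference 4.16 ± 0.38, SE, adjusted p = 2.72e-08, limma). At 24 hrs after 10 days it measured -0.60, -1, -1.01 and -0.83 in Ctrl and 3.19, 2.22, 3.07, 2.70 and 1.09 in AggE mice (difference 3.31 ± 0.38). Every AggE mouse was far above every Ctrl mouse in both comparisons, and at 1.5 and 4 wks the groups lay together, with differences of -0.08 and -0.05. Saa1 rose by 3.72 and 3.61 at the same 24-hr points. The other serum amyloid A genes did not pass there, Saa2 differing by 0.89 and 1.28 and Saa4 by 0.22 and 0.11. Lcn2, an iron-sequestering protein, was above background in 0 of the 8 Ctrl mice at 24 hrs and was at least 6.27-fold and at least 5.28-fold higher in AggE mice (both passed by limma), these bounds being set by the dimmest probe above background.

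Apcs, the serum amyloid P component, rose by 2.25 ± 0.25 (SE) after 5 days and by 1.85 ± 0.25 after 10 days, and Orm3, an orosomucoid, by 2.27 and 1.97 (each ± 0.39). Over 16 alternatives Apcs differed by 1.50 to 3.54 after 5 days and by 1.05 to 2.08 after 10 days. Its call was lost in 2 and 5 of them. Serpina3n, Orm2, Itih3 and Cp, all secreted plasma proteins, rose after 5 days, by 2.38, 1.61, 1.45 and 0.70, and did not pass after 10 days, where they differed by 1.41, 1.01, 0.61 and 0.42. These 4 calls were lost with slide as a random block, where the genes differed by 2.26, 1.46, 1.26 and 0.56 (lowest adjusted p = 0.191, limma). Orm3 lost both calls there, at 2.33 and 1.83 (adjusted p = 0.191 and 1), so that the sizes stayed similar with that block. Over 16 alternatives Serpina3n and Orm2 differed after 5 days by 0.33 to 2.52 and 0.23 to 1.97. Itih3 and Cp differed there by -0.07 to 1.84 and 0.56 to 0.84. The call was lost or the sign turned in 6, 7, 8 and 6 of the 16. Orm3 differed by 1.74 to 2.33 after 5 days and by 0.76 to 2.17 after 10 days, losing its call in 6 and 9. The calls of Itih3 and Cp after 5 days and of Orm3 after 10 days were also lost without 1 of several mice. The difference between the regimens did not pass for any gene of the list. Fibrinogen and haptoglobin genes, classical IL-6 targets, did not pass: Fga, Fgb and Hp differed by 0.78, -0.23 and -0.16 after 5 days. At 4 wks Serpina3n was higher in AggE mice by 1.32 and Saa4, a constitutive serum amyloid A, was lower by 1.09 on the log2 scale. Neither passed with slide as a random block (1.01 and -1.22, adjusted p = 0.233 and 0.0604). Over 17 alternatives Serpina3n differed by 0.43 to 2.47 and Saa4 by -1.74 to -0.02, and their calls were lost in 11 and 8. The count of 2 target genes at 4 wks became 1 without AggE mouse 2, 3 or 5 or Ctrl mouse 3, 4, 5 or 6, and 4 without AggE mouse 1 or Ctrl mouse 2. The Saa and Orm genes have close copies whose RNA can reach the same probe.

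Of 5 cholangiocyte markers, Spp1 also rose at 24 hrs after 5 days, by 1.28, and Krt7, not above background, passed at -0.38. Their summed level ranged from 1610 to 2960 in Ctrl and from 3070 to 5130 in AggE mice after 5 days and from 2980 to 4000 and from 7450 to 12900 after 10 days (linear Cy5 signal, not normalized between arrays, as in all marker sums). Epcam and Krt7 were not above background in any 24-hr mouse, while the 3 others, Krt19, Sox9 and Spp1, were above it in all mice at 24 hrs after 10 days. There 1 of the 5 was higher in AggE mice by 1.01, which met the study's 2-fold rule but did not pass. The part of these markers in the results was not tested. Of 6 neutrophil markers, Camp, Elane, Ngp, Mpo and S100a8 were not above background in any 24-hr mouse. S100a9 was above background in 2 of 4 Ctrl and 3 of 5 AggE mice after 5 days and in all 9 after 10 days, differing by 0.57 and 0.46, and did not pass. The 6 neutrophil markers summed to 223 to 411 and 283 to 855 in Ctrl and AggE mice after 5 days, and to 412 to 1270 and 440 to 1570 after 10 days. No Kupffer cell marker passed at 24 hrs. After 5 days 4 of 6 were higher in AggE mice (median 0.10), Marco by 1.19 (adjusted p = 0.109, limma), and the sums were 22000 to 40500 in Ctrl and 19600 to 33800 in AggE mice. After 10 days all 6 were higher in AggE mice (median 0.39), 3 at an unadjusted p of 0.05 or less, and all AggE mice were above all Ctrl mice for Marco (1.30) and Vsig4 (0.36). Their sums were 16900 to 42900 in Ctrl and 33800 to 62700 in AggE mice.

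Endothelial, stellate and hepatocyte markers did not pass at 24 hrs either. Of 4 hepatocyte markers Ttr was higher in AggE mice by 1.01 after 5 days (adjusted p = 0.163, limma), which met the study's 2-fold rule. After 10 days all AggE mice were above all Ctrl mice for Ttr (0.74) and Alb (0.28). Hepatocyte sums were 1190000 to 2010000 in Ctrl and 932000 to 2010000 in AggE mice after 5 days and 1660000 to 2840000 and 1710000 to 2740000 after 10 days. The 5 endothelial markers differed by -0.35 to 0.03 after 5 days, where their sums did not overlap (12600 to 17300 in Ctrl, 5570 to 12500 in AggE mice), and the sums after 10 days were 18400 to 26700 and 16800 to 31100. Stellate sums were 5700 to 7320 and 2670 to 7170 after 5 days and 8570 to 13400 and 10100 to 16300 after 10 days. At 4 wks all 5 cholangiocyte markers were lower in AggE mice (median -0.23). Of these Epcam passed at -0.66, with all AggE below all Ctrl mice, but it was above background in 1 of the 12. Of the Kupffer cell markers Cd5l differed by -1.12 and Clec4f by -0.79 at 4 wks (adjusted p = 0.0587 and 0.15, limma), and no marker other than Epcam passed there. The sums at 4 wks were 5060 to 16900 in Ctrl and 5010 to 7550 in AggE mice for cholangiocytes, and 42900 to 63100 and 31600 to 52700 for Kupffer cells. The part of these cell types in the differences of target and other pathway genes was not tested.

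**Figure D4:**
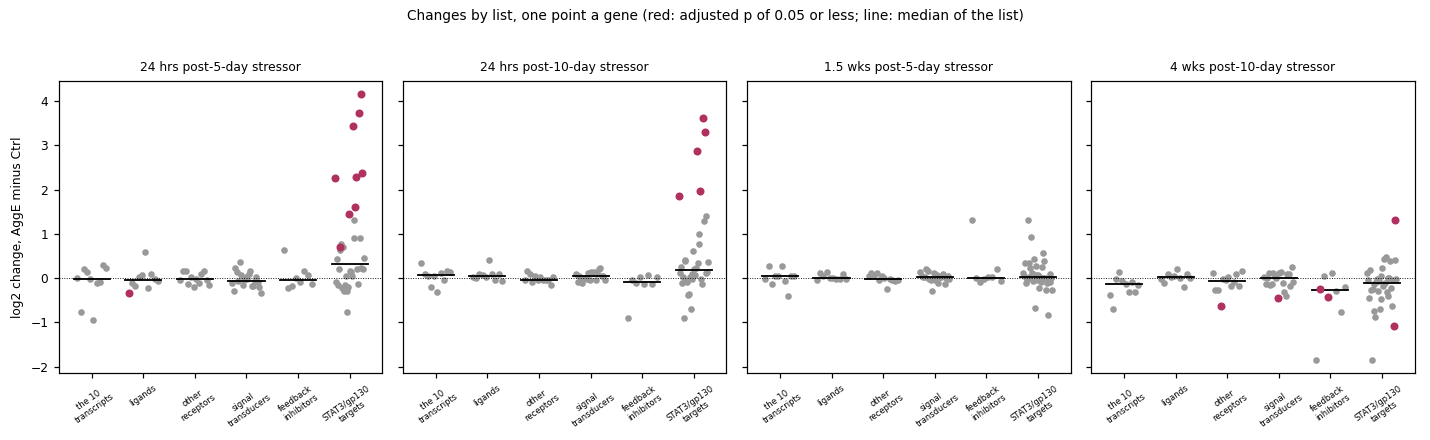
AggE minus Ctrl differences (log2) of all measured genes of the pathway lists at the 4 time points, 1 point a gene. Acute phase genes such as Saa3 (4.16 and 3.31) and Saa1 (3.72 and 3.61) stand out at both 24-hr points, and the members lie within 1 log2 unit of 0.

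Few other genes of the pathway passed. Of the ligands, 10 of 12 were measured, and Il6, Il1a, Il1b, Tnf and Osm did not pass at any time point. Il6 differed by -0.21 ± 0.10 (SE) at 24 hrs after 5 days and was well above background in 1 of 4 Ctrl and 2 of 5 AggE mice. At 24 hrs after 10 days Il6 was above background in 0 of 4 Ctrl and 4 of 5 AggE mice. Its means were -0.27 and -0.16, at least 1.11-fold higher in AggE mice, the opposite direction. At 1.5 wks Il6 was above background in 0 of 4 Ctrl and 3 of 5 AggE mice, with means of -0.18 and -0.21. Clcf1, a ligand of the gp130 family, passed there at -0.33 (adjusted p = 0.00562, limma) but was not above background in any of those 9 mice, and its sign turned with the scanner software's processed signals (0.33). Of 12 other receptors and decoys none passed at the first 3 points, and Il11ra1, the interleukin 11 receptor chain, fell at 4 wks. Its lowest, median and highest ratio was 0.93, 1.46 and 1.63 in Ctrl and 0.55, 0.77 and 0.93 in AggE mice, with all AggE mice below all Ctrl mice (difference -0.62 ± 0.13, SE, adjusted p = 0.0126; such a separation held for 1.7% of all gene names). Of 20 signal transducers Ptpn11, the phosphatase SHP2 that docks on gp130, fell at 4 wks by 0.44 on the log2 scale (adjusted p = 0.0332, limma). Of 8 feedback inhibitors Ptpn2, a phosphatase of STAT3, and Pias1, an inhibitor of activated STAT, fell at 4 wks by 0.43 and 0.25, and none passed earlier. With slide as a random block these 4 genes no longer passed (Il11ra1 -0.57, Ptpn11 -0.32, Ptpn2 -0.38 and Pias1 -0.25, adjusted p = 0.114, 0.297, 0.0972 and 0.143). The Il11ra1 call held without any 1 mouse, that of Ptpn2 was lost without AggE mouse 3 (-0.41), that of Ptpn11 without AggE mouse 2, 3 or 5 or Ctrl mouse 1, 3 or 4 (-0.44 to -0.34), and that of Pias1 without any 1 of 9 of the 12 mice (all but AggE mouse 1 and Ctrl mice 2 and 6). Cish, a feedback inhibitor that is also in the target list, had the largest 4-wk difference of both lists (-1.84). It met the study's 2-fold rule and did not pass.

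Several members differed between times after the stressor, in Ctrl as well as AggE mice. These 4 contrasts within an arm were added after the values had been seen. From 24 hrs to 1.5 wks after 5 days, 5 members passed in Ctrl mice (13.1% of all gene names did) and 4 in AggE mice (22.8%). Il6st, Tnfrsf1a and Lifr were lower and Socs3 and Stat3 higher at 1.5 wks. No slide held Ctrl mice of both times, and 1 slide held AggE mice of both. All 24-hr arrays were of the first scan day, and at 1.5 wks Ctrl mouse 4 and AggE mouse 2 were of the second. These had 40.9% and 47.7% of probes above background, against 15.2% to 24.5% in the other 1.5-wk mice.

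Socs3 measured 0.98, -0.51, 0.82 and 0.10 in Ctrl mice at 1.5 wks, each above all 4 Ctrl mice at 24 hrs (-1.37 to -0.81), a separation that held for 20.6% of all gene names. In AggE mice it measured 0.54, -1.06, -0.49, -0.01 and 0.79, and only mouse 2 lay within the 24-hr range of -1.59 to -1.05. The change was 1.49 ± 0.27 (SE; adjusted p = 0.0002) in Ctrl and 1.18 ± 0.24 (adjusted p = 0.000596) in AggE mice by limma. With slide as a random block it no longer passed in Ctrl mice (1.27, adjusted p = 0.0809) and passed in AggE mice (1.16, adjusted p = 0.0049).

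Lifr went the other way. It measured 0.47, 1.80, 0.63 and 1.90 in Ctrl and 0.15, 3.27, 1.68, 1.39 and 0.86 in AggE mice at 1.5 wks, with every Ctrl mouse below every Ctrl mouse at 24 hrs. The change was -2.24 ± 0.44 (SE; adjusted p = 0.000569, limma) in Ctrl and -1.03 ± 0.40 (adjusted p = 0.0581) in AggE mice. Without AggE mouse 2, which again stood with the 24-hr mice and was on a slide with 4-wk arrays, it passed in AggE mice too (-1.48, adjusted p = 0.00293). The random slide block gave -2.08 (adjusted p = 0.0638) in Ctrl and -1.40 (adjusted p = 0.0265) in AggE mice, and the mean over all 4 Lifr probes, 3 of which were dim, gave -0.57 (adjusted p = 0.0573) in Ctrl mice. Within the 1.5-wk groups, Ctrl mice 1 and 3 were lowest of their group for Lifr and highest for Socs3, as AggE mice 1 and 5 were in theirs. This did not hold at 24 hrs after 5 days, where AggE mice 4 and 3 had the lowest Lifr (1.33 and 1.94) with Socs3 at -1.17 and -1.05. At 1.5 wks Ctrl mice 1 and 3 also had the lowest shares of probes above background of their group (18.6% and 20.4%, others 24.5% and 40.9%). So did AggE mice 1 and 5 in theirs (15.2% and 22%, others 22.4% to 47.7%). The part of array signal in the Lifr and Socs3 values was not tested. Between the AggE and Ctrl mice of 1.5 wks the groups overlapped for both genes, with differences of 0.27 ± 0.42 (SE) for Lifr and -0.39 ± 0.25 for Socs3. Il1rap was also low in Ctrl mice 1 and 3 at 1.5 wks (1.51 and 1.39) and not in Ctrl mice 2 and 4 (3.5 and 3.97), while AggE mice measured 2.10, 3.06, 3.05, 3.34 and 2.76.

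**Figure D5:**
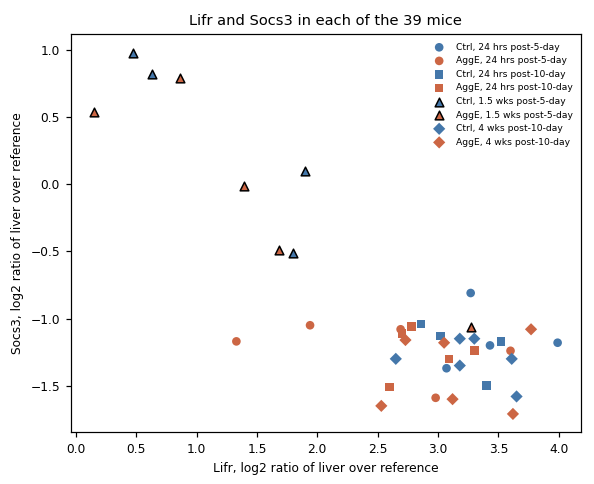
Log2 ratio of Socs3 against that of Lifr in each of the 39 mice, with colour and shape giving the group. The 1.5-wk mice spread from the cluster of the other mice (Lifr mostly above 2.5, Socs3 below -0.8) toward low Lifr and high Socs3, and AggE mouse 2 of the 1.5-wk group lies in the cluster.

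Il6st measured -0.61, -0.44, -0.69 and -0.64 in Ctrl and -0.43, -0.67, -0.45, -0.44 and -0.70 in AggE mice at 1.5 wks, with 4 of the 9 not above background, and all 9 were below all 9 mice at 24 hrs (in AggE mice 14.1% of all gene names had no overlap). It fell by 0.53 in Ctrl and 0.44 in AggE mice (adjusted p = 2.95e-05 and 5.85e-05, limma), and it passed in both with slide as a random block. With slide as a fixed block, which rests on the slide shared by AggE mice of both times (mouse 5 alone of the 24-hr group), its change was -0.15 (adjusted p = 0.442). Tnfrsf1a fell by 0.49 in Ctrl and by 0.67 in AggE mice (adjusted p = 0.00161 and 7.62e-06), and with the random slide block it lost its call in Ctrl mice (-0.49, adjusted p = 0.0963). Stat3 measured 0.63, 0.83, 1.03 and 0.53 in Ctrl and 0.78, 0.89, 0.79, 0.47 and 1.06 in AggE mice and was higher by 0.72 and 0.47 (adjusted p = 0.00753 and 0.0385). Stat3 passed in neither arm with slide as a random block (0.64 and 0.46, adjusted p = 0.266 and 0.101). In AggE mice its call was lost in 10 of 16 alternatives and without 1 mouse in 7 of 10 cases (mice 2, 3 and 5 at 24 hrs, mice 1, 2, 3 and 5 at 1.5 wks), with changes of 0.12 to 0.52 and 0.40 to 0.55. Without Ctrl mouse 4, whose title carries the other regimen, 7 members passed in Ctrl mice, with Il1rap (-1.5) and Il1rn (0.26, not above background) added. The array of that mouse was also the only 1 of its group on a slide with 4-wk arrays and of the second scan day. It had 40.9% of probes above background, against 18.6% to 24.5% in the other Ctrl mice of 1.5 wks.

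Cell type markers moved in the same contrasts. Of 4 hepatocyte markers Cyp2e1 and Ttr fell in both arms (by 2.80 and 2.03 in Ctrl and by 1.65 and 2.51 in AggE mice), while Alb did not pass. Apoa1 rose in Ctrl mice, by 0.89 (adjusted p = 0.0484, limma), and in AggE mice it differed by 0.59 and did not pass. Of 6 Kupffer cell markers 2 fell in Ctrl and 4 in AggE mice, with Clec4f and Cd5l among them in both, by 2.16 and 1.85 in Ctrl and by 1.54 and 1.48 in AggE mice, and of 5 endothelial markers Stab2 and Clec4g fell in both arms. Of 6 stellate cell markers Acta2 rose in both arms, by 1.37 and 1.07. Col1a1 rose by 0.89 and Reln fell by 1.09 on the log2 scale in Ctrl mice, and Des, above background in 1 of 5 AggE mice at each time, passed at 0.37. Of 5 cholangiocyte markers Krt19 rose in Ctrl mice (0.62), while in AggE mice Spp1 fell by 1.35 and Krt7, not above background, passed at 0.49. In AggE mice the neutrophil marker S100a8 (0.50, not above background) and the T cell marker Cd3g (0.51, above background in 1 of these 10) also passed. The summed hepatocyte markers ranged from 1190000 to 2010000 in Ctrl mice at 24 hrs and from 656000 to 1240000 at 1.5 wks (linear Cy5 signal), and those of Kupffer cells from 22000 to 40500 and from 6340 to 28700. In AggE mice the hepatocyte sums ranged from 932000 to 2010000 and from 532000 to 1460000, and the Kupffer cell sums from 19600 to 33800 and from 11500 to 51800. Their part in the changes of the members was not tested.

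From 24 hrs to 4 wks after 10 days, 1 member passed in Ctrl mice (10.3% of all gene names) and 5 in AggE mice (14.6%). Il1r1 was higher at 4 wks in Ctrl mice (0.69 ± 0.21, SE, adjusted p = 0.0336, limma), a call that was lost without mouse 1, 2 or 3 at 24 hrs (0.59 to 0.71) and without mouse 1, 4 or 5 at 4 wks (0.59 to 0.65). In AggE mice Il6ra was higher by 0.38 ± 0.09 (adjusted p = 0.00483) and Tnfrsf1a, Il6st and Osmr were lower by 0.42, 0.27 and 0.42 on the log2 scale (adjusted p = 0.00341, 0.012 and 0.0368), while the probe used for Il1rn passed without being above background on any array. Cell markers moved there too. In AggE mice the Kupffer cell markers Adgre1 and Cd5l fell by 0.47 and 1.21, 5 of 6 were lower at an unadjusted p of 0.05 or less (median -0.61), and their sums were 33800 to 62700 at 24 hrs and 31600 to 52700 at 4 wks. All 5 cholangiocyte markers were lower in AggE mice at 4 wks, of which Spp1 fell by 0.92 and Epcam, not above background in either group, passed at -0.65, and their sums were 7450 to 12900 and 5010 to 7550. The B cell marker Cd79a passed at 0.17 in AggE and the stellate cell marker Col3a1 at 0.37 in Ctrl mice, and the part of these markers was not tested. In both arms the arrays of 24 hrs and of 4 wks came from different scan days. With that day as a fixed block Il1r1 no longer passed in Ctrl mice (0.54, adjusted p = 0.58), nor with slide as a random block (0.69, adjusted p = 0.62). In AggE mice none of the 5 passed with scan day, and Osmr had the opposite sign (0.15). Il6ra passed in AggE mice with slide as a random block (0.47, adjusted p = 0.0386), and Tnfrsf1a, Il6st and Osmr did not (-0.46, -0.24 and -0.32, adjusted p = 0.076, 0.277 and 0.474). The Osmr call was also lost without AggE mouse 1, 2 or 5 at 24 hrs or mouse 2 or 3 at 4 wks (-0.42 to -0.34). The 4-wk values of Lifr and Socs3 were close to those at 24 hrs, with changes of 0.06 and -0.10 in Ctrl and 0.24 and -0.15 in AggE mice, none of which passed.

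Across the 39 mice and 3478 genes above background on all arrays, the genes most like each member were named by Pearson's r, as a description over mice that share groups and slides. Lifr ran most closely with Hsd3b5 (r = 0.91), Aadat (0.90) and Bbox1 (0.89), all enzymes of hepatocyte metabolism, and Il1rap with Hsd3b4 (0.86). Socs3 ran with Trip6 and Tpm4 (0.94 each) and Akt1 (0.93). Tnfrsf1a ran with Orm2 (0.87), which is itself 1 of the 34 target genes, Il6st with Pmpcb (0.91), Stat3 with Sppl3 (0.86) and Osmr with Arf3 (0.88). Il6ra, Il1r1 and Il1rn had no close partner, with a best r of 0.67 or 0.68.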

How the data were processed

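Liver RNA of 39 mice (Cy5) was hybridised with a common reference RNA (Cy3), with no dye swap. The deposited scanner files hold linear spot intensity from Agilent Feature Extraction (version 11.5.1.1 per the file headers), and the authors also deposited a table of log10 ratios, used as an alternative. Each array has 45018 spots, of which 0.295% to 1.46% were marked outliers and left out.

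Median spot intensities (the analysis plan had named means) were background-corrected with normexp (offset 50), loess-normalized within and quantile-normalized between arrays, as log2 ratios, with limma 3.58.1 in R 4.3.3. One fit over the 8 groups gave moderated tests with Benjamini-Hochberg adjustment over 25903 RefSeq probes. Each gene was represented by its brightest probe. The number of arrays limits the precision. The steps were tested on simulated data. There a log2 change of 0.3 passed for 15 to 20 of 50 probes in the 4 AggE-versus-Ctrl comparisons, and 1 of 0.75 for 39 to 45. A small change of a member can therefore go uncalled.

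Groups came from the source labels, and mice are the labelled biological replicates. Members and gene lists were chosen with earlier results of these data known. All members are named, and list genes only where they passed or are main ligands or classical targets. Contrasts between times were added after seeing the data. Alternatives varied background, normalization, probes, batch terms and single mice. Lcn2 folds are bounds against the dimmest signals well above background.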

Additional observations from a re-analysis of the deposited data

Results flagged for a closer look

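In 4 of 80 groups of the members, and in 3 of 42 groups of list genes, 1 mouse lay far from the rest by Dixon's test, where chance marks about 1 group in 20 (4 and 2.1 groups). For the members these were Il6ra in AggE mouse 5 at 24 hrs after 10 days (-0.55), Osmr in Ctrl mouse 3 at 24 hrs after 5 days (-1.58), Il1r1 in AggE mouse 2 at 1.5 wks (0.63) and Il1rn in Ctrl mouse 2 at 24 hrs after 10 days (-0.03). For list genes they were Ptpn2 (-0.58) and Serpina3n (0.27) in AggE mouse 1 at 4 wks and Lcn2 in Ctrl mouse 4 at 24 hrs after 5 days (-0.38). Of these 7 values, those of Il1r1 and Ptpn2 were well above background on their array, and the others were not, so they carry no level.

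For 4 acute phase genes the AggE-versus-Ctrl difference itself differed between times by limma's test of that difference (adjusted p of 0.05 or less). After 5 days of exposure it was higher at 24 hrs than at 1.5 wks by 4.23 for Saa3, 3.84 for Saa1, 3.52 for Lcn2 and 2.15 for Apcs. After 10 days of exposure it was higher at 24 hrs than at 4 wks by 3.36 for Saa3, 3.83 for Saa1, 2.98 for Lcn2 and 1.73 for Apcs. The 2 values of Lcn2 are fitted and no exact size, since Lcn2 was above background in 0 of 8 Ctrl mice at 24 hrs, in 1 of 9 mice at 1.5 wks and in 1 of 6 mice of each 4-wk group.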

How the results depend on the processing

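Leaving out each mouse in turn, 0 members passed in each AggE-versus-Ctrl comparison and each difference between times or regimens (0 to 0). The count was 5 to 7 from 24 hrs to 1.5 wks in Ctrl and 3 to 5 in AggE mice, and 0 to 1 and 4 to 6 from 24 hrs to 4 wks. At 24 hrs after 5 days 1 member passed with a normexp offset of 0 or 16 or with array weights (Il1rn, not above background) and with Cy5 alone (Tnfrsf1a). At 4 wks 1 passed with the mean over probes (Il6ra), with array weights (Il1r1) and with slide as a fixed block (Tnfrsf1a, resting on AggE mouse 1), and array weights gave 1 for the difference between 24 hrs and 4 wks (Il1r1). The other alternatives gave 0 in these comparisons. From 24 hrs to 1.5 wks in Ctrl mice 3 passed with no normalization between arrays or Aquantile, and 1 with slide as a random block. From 24 hrs to 4 wks in Ctrl mice 2 passed with no normalization between arrays or Aquantile, and 0 with offset 0, Cy5 alone, only the groups compared, slide as a random block or scan day as a block. In AggE mice it was 3 with offset 16, 1 with no background correction, the deposited ratios or slide as a random block, and 0 with offset 0, processed signals, no normalization between arrays, Aquantile, Cy5 alone or scan day.

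Signs turned for Il1rap at 24 hrs after 5 days (1.13, processed signals), Osmr at 4 wks (0.21, no normalization between arrays and Aquantile) and Osmr from 24 hrs to 4 wks in AggE mice (0.14 with the deposited ratios, 0.15 with scan day). They turned from 24 hrs to 1.5 wks in Ctrl mice for Il1rap (0.07 with processed signals, 0.00 with Cy5 alone) and Il1rn (-0.7 with processed signals, -0.97 with the deposited ratios). At 24 hrs after 5 days they turned for Clcf1 (0.33 with processed signals, 1.04 with the deposited ratios) and Itih3 (-0.07 with the deposited ratios). The cause was not tested. Leaving out 1 mouse gave 7 to 10, 4 to 5, 0 to 0 and 1 to 4 target genes of STAT3 and gp130 at the 4 points. With the replicate number as a block 0 members passed in each AggE-versus-Ctrl comparison and difference. Same-numbered mice did not deviate together (correlations of -0.423 to 0.495), so the numbers do not pair the mice. Genes not well above background (Il1rn on all arrays by the probe used, Il6ra and Osmr at 24 hrs after 5 days) limit what can be seen.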
